A study of Oryza sativa with 10 samples.

Results

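Accessible chromatin in rice (Oryza sativa) seedlings sprayed with abscisic acid (ABA) was set directly against that in seedlings sprayed with indole-3-acetic acid (IAA). Peaks of the 2 ABA lists and the 2 IAA lists were merged into one site wherever they overlapped by at least 1 bp. This gave 26013 sites. A separate merge of the lists of the whole series gave 33382 sites, in which some of the 26013 run together. A site was called ABA-side when both ABA lists and neither IAA list had a peak there, and 733 sites (2.82%) met this rule. It was called IAA-side in the converse case, which held for 9381 sites (36.1%). Sites with a peak in all 4 lists were called shared and numbered 11265 (43.3%). The other 4634 sites were undecided, because at least 1 of the treatments had a peak in only 1 of its lists.

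The series holds 10 peak lists, 2 for each of 5 groups: seedlings with ABA treatment, seedlings with IAA treatment, seedlings kept dark, and seedlings moved to light for 8 h or 24 h. The material was whole seedlings of an indica cultivar, germinated in the dark, and the reads were placed on the japonica reference MSU7.0. Both hormones were sprayed, in a solvent, on seedlings near the end of 24 h in light, so ABA and IAA seedlings shared the light period and the spray. The 24 h seedlings differ from both in the spray as well as the hormone, and the mock spray of the experiment was not analysed here, so hormone and spray cannot be told apart relative to 24 h.

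ATAC-seq uses the Tn5 transposase, which cuts and tags DNA where it is not wrapped in nucleosomes, so that a peak marks a stretch open to regulatory proteins. ABA is the hormone that plants raise under drought and salt stress and during seed maturation; it acts through PYL receptors, which bind and block PP2C phosphatases and so free SnRK2 kinases to act on bZIP factors. IAA, the main natural auxin, acts through TIR1/AFB receptors, which mark the AUX/IAA repressors for breakdown and so release the ARF factors that control growth genes. The sites below are described by position only, because no genome or annotation of MSU7.0 was used here.

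The ABA lists held 13278 and 12659 peaks and the IAA lists 23089 and 23778 peaks, against 19746 and 18111 peaks in the 24 h lists. A pileup, the number of tags over a peak's summit, was solved for every peak from its deposited fold and p-value. The 2 lists of one treatment were taken to share most of their tags, because their pileups were far more alike than independent counts would be. After scaling to equal totals, the chi-square per site, near 1 for independent counts, was 0.0114 with ABA, 0.0872 with IAA and 0.0697 at 24 h. Between ABA and IAA lists it was 0.822 to 0.860. Identical summit positions made up 81.1% with ABA, 39.0% with IAA and 46.1% at 24 h, against 2.89% to 3.02% between ABA and IAA lists. Each group therefore counts as 1 sample (n = 1), the differences below have no replicate check, and neither p-values nor SDs are given. Intervals are 95% Wilson intervals and cover counting error only. A call in a region of lowest background needed 16 tags in each ABA list, 13 in each IAA list, and 13 and 14 in the 24 h lists. A site with 13 to 15 tags under both treatments could thus be called with IAA and not with ABA. A site is called open below where it had a peak and closed where it had none, and no peak was narrower than 100 bp.

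By the deposited calls, far more sites were open with IAA alone than with ABA alone. Of the 10114 sites that fell on one side, 733 (7.25%) were ABA-side and 9381 (92.8%, 92.2% to 93.2%) were IAA-side. The ABA-side sites made up 5.94% of the 12349 sites of both ABA lists. The IAA-side sites made up 44.1% of the 21273 sites of both IAA lists. Seen from the shorter lists, 92.1% of ABA peaks met an IAA peak (mean of the 4 pairs of lists), while the mean Jaccard index, the shared base pairs over those in either list, was 0.443.

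This imbalance depended on how the 2 treatments were put on one scale. With each list cut to an equal number of its strongest peaks, 2658 sites were ABA-side and 2617 IAA-side, a near balance that equal list lengths favour by construction. The ABA lists had 1.32 times the background floor of the IAA lists, but 0.838 times their median pileup at the 9508 sites called in all 10 lists. When peaks had to reach a common height relative to the floor, 688 sites were ABA-side and 9506 IAA-side. When the height was relative to the pileup at sites called everywhere, the counts were 1234 and 6518. A stricter count took only sites with at least 1.5 times the tags that a call needed on the other side. It left 118 ABA-side and 6249 IAA-side sites on the floor scale, but 693 ABA-side and 570 IAA-side sites on the scale of sites called everywhere. On the latter scale 94.5% of ABA-side but 6.08% of IAA-side sites passed, against 16.1% and 66.6% on the floor scale. An ABA call itself needed 16 tags at lowest background and an IAA call 13, which favoured the ABA side in advance on the latter scale. At 2 times the tags needed, the counts were 49 ABA-side and 1939 IAA-side sites on the floor scale, and 292 ABA-side and 36 IAA-side sites on the scale of sites called everywhere. The direction of the imbalance at these margins therefore turned with the scale, and which scale is right was not tested.

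**Figure D1:**
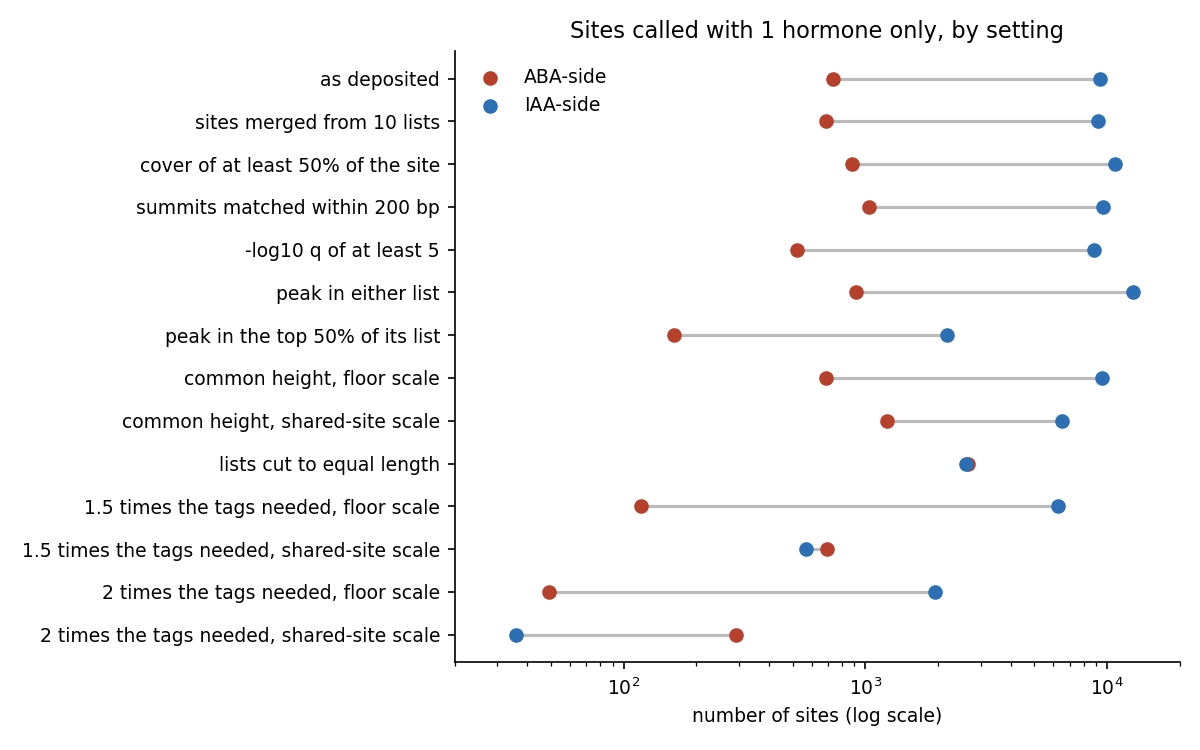
Number of ABA-side (red) and IAA-side (blue) sites, on a logarithmic axis, under each setting named on the left. The IAA side was the larger in 11 of the 14 settings. The sides nearly met with lists of equal length (2658 ABA-side and 2617 IAA-side), and on the scale of sites called everywhere the ABA side was the larger at 1.5 times (693 and 570) and at 2 times (292 and 36) the tags needed. On that scale the unequal tags needed for a call favoured the ABA side.

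At both kinds of sided site the peaks were weak. The median pileup was 23 tags at ABA-side sites, where a call with IAA needed a median of 14 tags. It was 22.5 tags at IAA-side sites, where a call with ABA needed 16. Median widths were 145 bp for ABA-side, 182 bp for IAA-side and 313 bp for shared sites. At shared sites the median pileup was 28 tags with ABA and 32 tags with IAA. Of the ABA-side sites, 69 (9.41%) lay on average in the top 25% of the ABA lists by −log10 q, and 431 IAA-side sites (4.59%) lay in the top 25% of the IAA lists. These are called the strong sites of each side.

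The 24 h lists took no part in defining the sides, and they differed between them. Of the 733 ABA-side sites, 230 (31.4%, 28.1% to 34.8%) had a peak in both 24 h lists, 68 (9.28%) in one and 435 (59.3%, 55.7% to 62.8%) in neither. Of the 9381 IAA-side sites, 4503 (48.0%, 47.0% to 49.0%) had a peak in both 24 h lists, 1101 (11.7%) in one and 3777 (40.3%, 39.3% to 41.3%) in neither. For comparison, 10348 shared sites (91.9%) were called in both 24 h lists and 580 (5.15%) in neither, and over all merged sites the shares were 62.8% and 29.8%. A site open with ABA alone was thus more often closed than open at 24 h by these calls, while IAA-side sites divided more evenly.

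Put in terms of the 24 h state, 230 ABA-side sites were open at 24 h and with ABA and had no peak with IAA, while 435 had a peak with ABA alone among the 3 groups. On the other side, 4503 sites were open at 24 h and with IAA and had no peak with ABA, and 3777 had a peak with IAA alone among the 3. The ABA-side share at 24 h was below the IAA-side share under each of 19 alternative settings, which included both scales and lists of equal length. With lists of equal length the shares called in both 24 h lists were 29.5% for the ABA side and 47.5% for the IAA side. The gap was not seen among the weakest sites, those below percentile 25 of their own lists by −log10 q. There the shares were 29.8% (25.2% to 34.8%) for the ABA side and 31.8% (30.2% to 33.5%) for the IAA side. These weakest sites made up 47.2% of ABA-side and 33.8% of IAA-side sites.

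IAA-side sites with a 24 h peak were stronger and wider than those without. Their median pileup was 24.5 tags and their median width 212 bp where both 24 h lists had a peak, against 21 tags and 156 bp where neither had one. On the ABA side the difference was smaller, with 24 tags and 156 bp where both 24 h lists had a peak, against 23 tags and 141 bp where neither had one. A call at 24 h needed a median of 15 and 14 tags at these 2 sets of ABA-side sites, and 13.5 tags at both sets of IAA-side sites.

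The dark and 8 h lists extended the comparison to seedlings that saw no hormone and less light. In the dark, 359 ABA-side sites (49.0%), 5967 IAA-side sites (63.6%) and 96.1% of shared sites had a peak in both lists, against 73.6% of all merged sites. At 8 h the shares were 27.7% for ABA-side, 56.0% for IAA-side and 90.2% for shared sites, against 65.5% of all merged sites. A peak in neither dark list was seen at 306 ABA-side sites (41.7%) and 27.3% of IAA-side sites, against 20.4% of all merged sites. Calls in the dark lists needed 11 tags at lowest background, fewer than in any other group, which moves with the higher dark shares, and its part in them was not tested.

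**Figure D2:**
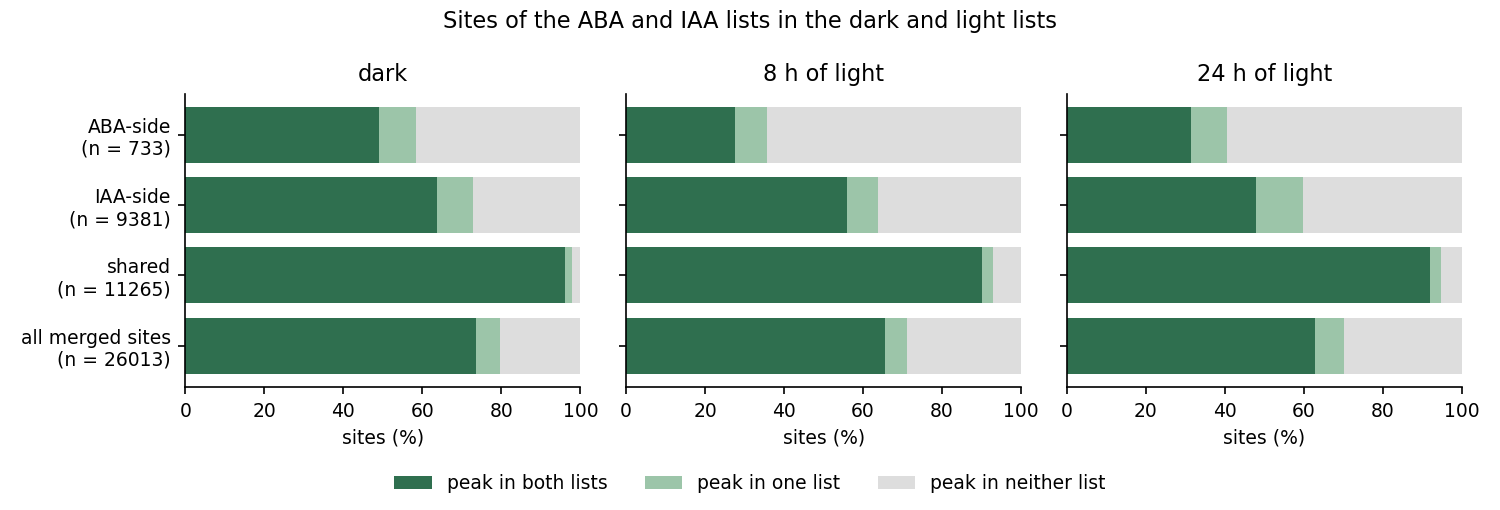
Share of ABA-side, IAA-side, shared and all merged sites, as a percentage, with a peak in both, one or neither of the lists of dark, 8 h and 24 h seedlings. Shared sites were nearly all called in each group, and ABA-side sites had the lowest share called in both lists in each of the 3 panels (49.0%, 27.7% and 31.4%).

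Some sites of each side that were closed at 24 h were open in the dark, but less often than shared sites closed at 24 h. Of the 435 ABA-side sites with no 24 h peak, 173 (39.8%, 35.3% to 44.4%) had a peak in both dark lists and 220 (50.6%) in neither. Of the 3777 IAA-side sites with no 24 h peak, 1652 (43.7%, 42.2% to 45.3%) were called in both dark lists and 1710 (45.3%) in neither. These dark shares lay close together, and whether they differ beyond the spread between plants was not tested. At 8 h, 51 (11.7%, 9.03% to 15.1%) of these ABA-side sites and 1147 (30.4%, 28.9% to 31.9%) of these IAA-side sites had a peak in both lists. The 8 h share was 39.1% among shared sites with no 24 h peak. Sites with no peak in any dark or light list numbered 197 (26.9%) on the ABA side, 1252 (13.3%) on the IAA side and 65 (0.577%) among shared sites.

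Strength separated the sides further. Among IAA-side sites, the share called in both 24 h lists was 31.8% below percentile 25 of the IAA lists, 45.8% up to percentile 50, 67.1% up to percentile 75 and 87.5% among the strong sites. Shared sites of the same percentile classes were called at 24 h in 70.2%, 80.4%, 92.2% and 99.2% of cases. The dark shares of IAA-side sites were 48.7%, 62.8%, 80.3% and 94.7% (92.1% to 96.4%) over these classes, against 82.1%, 90.6%, 97.1% and 99.7% of shared sites. The strong IAA-side sites were, for the most part, sites open in the dark and in light whose peak was missing with ABA: 353 of the 431 (81.9%) had peaks in both lists of the dark, 8 h and 24 h groups, and 4 had none in any of these lists. Of the 11265 shared sites of any strength, 9555 had peaks in both lists of these 3 groups. Peaks throughout the dark and light groups are thus not particular to the strong IAA-side sites.

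ABA-side sites showed another order. The share called in both 24 h lists was 29.8%, 28.2%, 35.2% and 43.5% (32.4% to 55.2%) from the lowest to the highest percentile class of the ABA lists. In the dark 173 of the 346 sites below percentile 25 were called (44.8% to 55.2%), and 54.9% and 57.1% in the next classes, but 13.0% (7.02% to 23.0%) among the strong sites, where 9 of 69 were called. Of shared sites in the same classes of the ABA lists, 92.0%, 94.5%, 97.5% and 99.4% were called in the dark. No dark list had a peak at 58 of the 69 (84.1%). Of the 69, 30 (43.5%) had no peak in any dark or light list, 22 (31.9%) were called at 8 h and 24 h and in neither dark list, and 4 (5.80%) were called throughout. The strong ABA-side sites were thus mostly closed in the dark. The strong IAA-side sites were mostly open there, as nearly all strong shared sites were, so an open state in the dark is not particular to them.

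The contrast in the dark kept its direction when the strong sites were chosen again under other settings. It was 36.2% of 149 ABA-side and 65.4% of 437 IAA-side sites with lists of equal length, and 21.2% of 85 and 86.3% of 432 sites at a common height scaled to sites called everywhere. Matching summits within 200 bp gave 27.6% of 127 and 83.4% of 580 sites. Leaving out 1 hormone list at a time gave 11.8% to 20.3% for the ABA side and 94.2% to 95.3% for the IAA side.

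**Figure D3:**
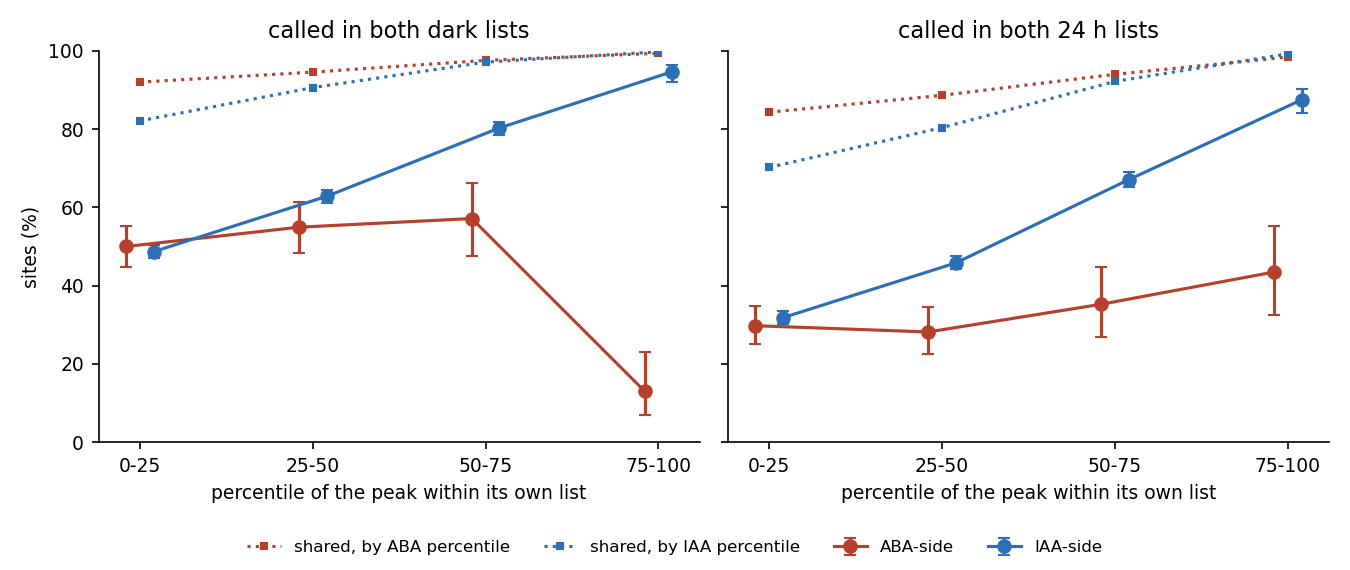
Percentage of sites called in both dark lists (left) and both 24 h lists (right), by the percentile of the peak within its own list, for ABA-side and IAA-side sites (solid lines, bars are 95% Wilson intervals) and for shared sites ranked in the ABA or IAA lists (dotted lines). In the dark the class from percentile 75 to 100 stood at 13.0% for ABA-side and 94.7% for IAA-side sites.

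The strong ABA-side sites were broader and lay closer together than the weaker ABA-side sites. They were picked for the −log10 q of their peaks, and how far width and spacing follow from that choice was not tested. Strong ABA-side sites had a median width of 345 bp and a median pileup of 53 tags. Median widths were 238 bp for strong IAA-side sites and 313 bp for shared sites of any strength. Of the 69, 30 were at least 400 bp wide, against 11 of the 664 weaker ABA-side sites. Another ABA-side site lay within 5 kb of 35 of them (50.7%), against 76 of the weaker ones (11.4%). In the far larger other classes, at any strength, a site of the same class lay within 5 kb of 37.5% of IAA-side and 43.1% of shared sites. Grouped at gaps of up to 5 kb, the 69 sites made 50 separate places, of which 9 (18.0%) held a site called in both dark lists. Neighbouring sites are not independent of each other.

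Where the strong ABA-side sites had a 24 h peak, it was much lower than the ABA peak. All 30 such sites had fewer tags at 24 h, and at 22 of them the ABA pileup was at least 1.5 times that at 24 h. The median log2 ratio of 24 h over ABA was -1.31 unscaled, -1.43 scaled to sites called everywhere and -0.93 on the floor scale. At the 377 strong IAA-side sites with 24 h peaks, the median log2 ratio of 24 h over IAA was -0.38 unscaled, with the IAA pileup at least 1.5 times that at 24 h at 79 sites. These sites were picked for height on their own side, so the ratios are a description. Over all 230 ABA-side sites called at 24 h the median of 24 h over ABA was -0.16, but 0.21 on the floor scale. Over the 4503 IAA-side sites that of 24 h over IAA was -0.09, but 0.05 on the scale of sites called everywhere.

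Positions of single sites are given on MSU7.0. The strongest ABA-side site lay on chromosome 3, from 19244061 to 19244606. It had 162 tags in each ABA list and no peak in the IAA lists, where 18 tags were needed. It also had 85 and 86 tags at 8 h and 90 and 92 tags at 24 h, and no peak in the dark, where 15 tags were needed. Its neighbour from 19245351 to 19248198, 2848 bp wide, had 166 and 164 tags with ABA and no peak with IAA, where 25 and 26 tags were needed. It had 96 and 98 tags at 8 h and 99 and 102 tags at 24 h. Both sites were closed in the dark, open in light, highest with ABA and without a peak with IAA. With summits matched within 200 bp, this broad site was no longer ABA-side.

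On chromosome 11, from 12266471 to 12266726, the ABA lists had 119 and 116 tags and the IAA lists had no peak, where 13 tags were needed. The 8 h lists had 40 and 39 tags there and each 24 h list had 45. A group of 3 ABA-side sites on chromosome 10 lay within 2367 bp. The site from 8910130 to 8910446 had 118 and 117 tags with ABA, 31 in each 8 h list, and 24 and 30 tags at 24 h. The site from 8908917 to 8909620 had 112 and 110 tags with ABA, 25 and 27 at 8 h, and 32 in each 24 h list. The third, from 8908080 to 8908424, had 92 and 89 tags with ABA and no peak in any other list, although 18 to 19 tags would have sufficed at 24 h. None of the 3 had a peak with IAA, where 13 to 18 tags were needed, or in the dark.

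Further ABA-side sites with no 24 h peak had a similar profile. The site on chromosome 2 from 27933060 to 27934315 had 80 and 75 tags with ABA, and outside ABA only 17 tags in 1 of the 8 h lists. On chromosome 6, from 696429 to 696669, ABA gave 76 tags in either list and no peak was seen elsewhere, where 14 and 15 tags were needed with IAA. All 8 ABA-side sites named by the rule stood at least 5 times above the tags needed with IAA, and none had a peak in the dark.

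The named IAA-side sites were lower and had peaks in the dark. On chromosome 1, from 163165 to 163379, no ABA list had a peak, where 16 tags were needed, and the IAA lists had 49 and 52 tags. The dark lists had 29 and 31 tags there, the 8 h lists 40 and 39, and the 24 h lists 28 and 27. On chromosome 2, from 6925308 to 6925487, an ABA call again needed 16 tags and was missing, and the IAA lists had 48 and 49 tags. The dark lists had 38 tags each there, the 8 h lists 50 and 52, and the 24 h lists 46 and 41. Peaks at both sites were thus present in each group but ABA.

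Other IAA-side sites repeated this form. No ABA list had a peak at the next 3 sites, where 16 to 18 tags were needed. The IAA lists had 47 and 44 tags on chromosome 12, from 20846800 to 20846996, and the 24 h lists had 29 and 30. On chromosome 2, from 9919796 to 9919982, there were 46 and 44 tags with IAA and 30 and 34 at 24 h. Also on chromosome 2, from 29830878 to 29831413, each IAA list had 47 tags, against 36 and 35 at 24 h. These sites were called in both dark lists and in both 8 h lists as well.

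Of IAA-side sites with no 24 h peak, the strongest lay on chromosome 2, from 10354364 to 10354596. Calls there needed 16 tags with ABA and 13 and 14 at 24 h. The IAA lists had 43 and 41 tags, the dark lists 35 and 34, and the 8 h lists 26 and 25. On chromosome 6, from 24186844 to 24187007, IAA gave 39 and 44 tags, the dark 21 and 18, and 8 h of light 23 and 24. On chromosome 3, from 17077342 to 17077573, there were 38 and 41 tags with IAA, 24 and 26 in the dark and 23 and 25 at 8 h. These 3 sites had a peak in dark, 8 h and IAA seedlings and none at 24 h or with ABA.

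**Figure D4:**
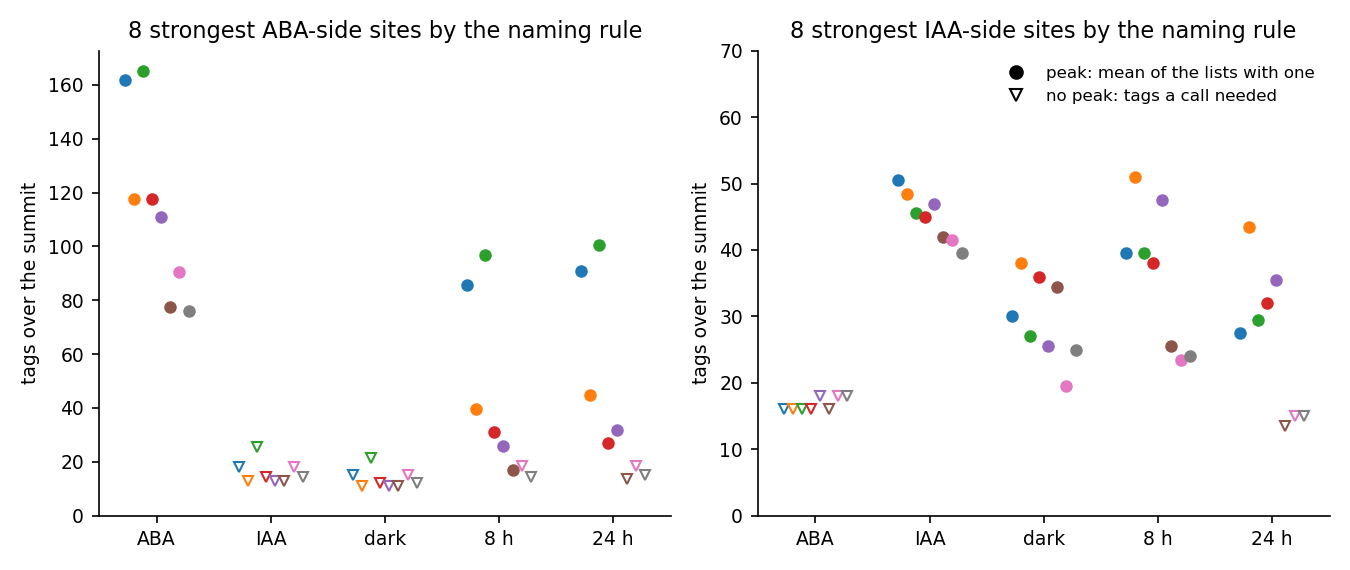
Tags over the summit (vertical axes, with separate ranges) at the 8 named ABA-side sites (left) and the 8 named IAA-side sites (right) in ABA, IAA, dark, 8 h and 24 h seedlings, with 1 colour for each site within a panel. Filled circles are means of the lists with a peak, and open triangles give the tags a call needed where neither list had one. ABA-side sites had no peak in the dark, and IAA-side sites all had one.

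At shared sites the 2 treatments could be compared by height. The median log2 ratio of ABA over IAA pileup was -0.16 (quartiles -0.38 and 0.06) over the 11265 shared sites, with ABA lower at 7553 and higher at 3418. Scaled to sites called everywhere the median was 0.10, and scaled to the background floor it was -0.55. The sign thus followed the scale, and no general direction is given for shared sites. The unscaled median was 0 for the fifth of sites with the lowest pileups, then -0.13, -0.22, -0.26 and -0.16 for the fifth with the highest.

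Counts of unequal shared sites moved with the scale as well. Unscaled, 109 shared sites had at least 1.5 times the IAA pileup with ABA, and 1154 had at least 1.5 times the ABA pileup with IAA. On the scale of sites called everywhere these counts were 685 and 204, and on the floor scale 6 and 5175. Of the 685 sites, 543 (called in both 24 h lists) had a median log2 ratio of 24 h over ABA of -0.39 and of 24 h over IAA of 0.36 on that scale. Of the 204 sites, 203 were called in both 24 h lists, with a median of 0.47 for 24 h over ABA and -0.21 for 24 h over IAA. At sites called in both 24 h lists, the 24 h pileup thus tended to lie between the treatments in both sets. No 24 h list had a peak at 98 of the 685 sites and at 0 of the 204, so the medians leave those 98 out. All this is a description, since the sites were picked for their ABA to IAA ratio.

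**Figure D5:**
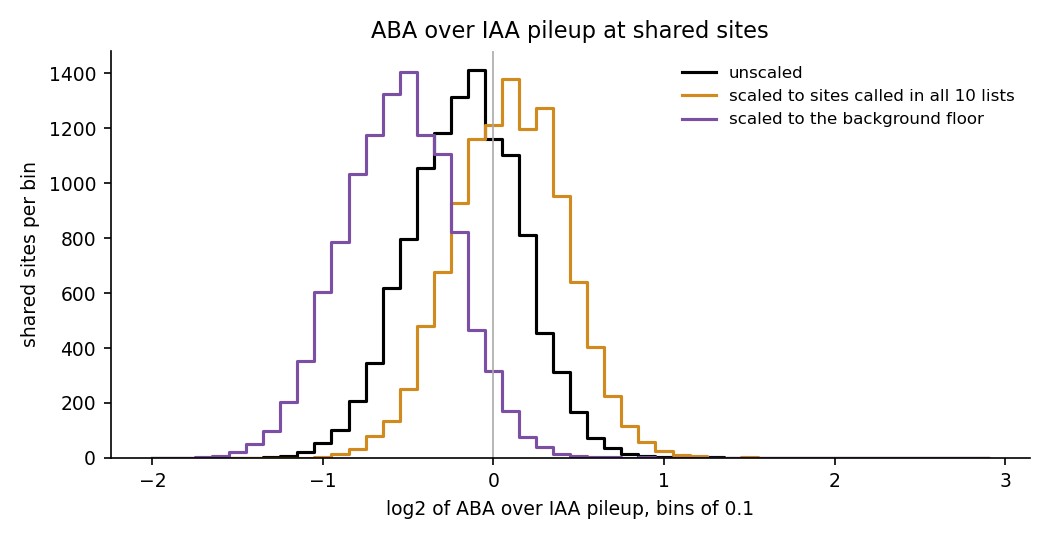
Number of shared sites by log2 ratio of ABA over IAA pileup, in bins of 0.1, unscaled and under both scales. The curves have the same shape and are shifted against each other, with medians of -0.16 unscaled, 0.10 scaled to sites called in all 10 lists and -0.55 scaled to the background floor.

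The most unequal shared site lay on chromosome 11, from 12351979 to 12352928. The ABA lists had 97 and 96 tags there and the IAA lists 16 each, an unscaled ratio of 6.03 (3.51 to 10.9, counting error only). The site was picked as the extreme of this ratio, which the interval does not allow for. It had 22 tags in each 8 h list, 28 and 29 at 24 h, and no peak in the dark. On chromosome 4, from 30321142 to 30321791, there were 84 and 80 tags with ABA and 23 and 21 with IAA, a ratio of 3.73. The dark lists had 13 and 15 tags at that site and the 24 h lists 22 and 23. Both sites had ABA pileups as high as those of strong ABA-side sites, and a weak IAA peak kept them in the shared class. Another site on chromosome 4, from 9184224 to 9184628, had 50 and 48 tags with ABA and 18 and 23 with IAA, with 38 and 40 at 24 h.

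At the other end, a site on chromosome 6 spanned 3373887 to 3374187, and its ABA lists had 22 tags each, with 54 and 55 with IAA. IAA was 2.48 times ABA there, unscaled (1.47 to 4.23, counting error only), and the 24 h lists had 53 and 48 tags. This site too was picked as an extreme, which the interval does not allow for. On chromosome 10, from 20892800 to 20893163, there were 19 tags in each ABA list and 45 and 46 with IAA, against 32 and 31 at 24 h. On chromosome 2, from 9964031 to 9964412, either ABA list had 32 tags and the IAA lists 76 and 75, against 67 and 62 at 24 h. In all 3 the 24 h pileup was above that with ABA.

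Summits of shared sites were close between treatments. The median distance between an ABA and an IAA summit was 27 bp in each of the 4 pairs of lists, and 68.5% to 68.8% of summits lay within 50 bp. For IAA and 24 h the median distance was 23 bp, and for ABA and 24 h 26 to 27 bp. ABA-side sites called at 24 h had median distances of 34 to 36 bp between the ABA and 24 h summits, and IAA-side sites 25 to 26 bp between the IAA and 24 h summits.

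Sided sites were spread over the 12 chromosomes. IAA-side sites made up between 28.8% of merged sites on chromosome 11 and 39.2% on chromosome 1. ABA-side sites made up between 2.49% on chromosome 3 and 3.75% on chromosome 11. In the 357 bins of 1 Mb with at least 20 sites, the IAA-side share ranged from 3.61% to 61.8% with a median of 34.1%. Only 2 bins had more ABA-side than IAA-side sites. The share of IAA-side sites was 26.9% in the 119 bins with fewest sites, 34.8% in the next 119 and 40.1% in the 119 with most. ABA-side shares ran the other way, at 4.39%, 2.82% and 2.28%, and shared sites made up 51.7%, 45.0% and 39.3%.

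Some sided sites lay in runs. ABA-side sites formed 48 runs of 2 or more with gaps of up to 5 kb, which held 111 sites. The largest runs, named after their values were seen, had 4 sites: on chromosome 2 from 30096310 to 30098582, and on chromosome 3 from 23525846 to 23528137. In both, no site had a peak at 24 h or in the dark. IAA-side sites formed 1493 runs with 3521 sites, of which the largest had 8. The median distance to the nearest shared site was 4948 bp from ABA-side and 8089 bp from IAA-side sites.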

How the data were processed

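ATAC-seq reads of the seedlings were aligned by the authors with Bowtie2 2.3.2 to the MSU7.0 genome, filtered by mapping quality and for duplicates in SAMtools 1.9, and MACS2 called the peaks of each library, per the methods of the study and the submitters' processing notes. No shift for the Tn5 cut is stated. The deposited lists hold, for each peak, a score, a ratio (the fold over background), −log10 values of p and q, and the summit. The authors' score is a rescaled −log10 q-value and was not used. Peak totals in the study differ from those of the deposited lists outside IAA, so the lists are not shown to be the calls behind its counts. Its reproducibility filter and DiffBind were not rerun, and the absolute depth is unknown.

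In MACS2 the fold is (pileup + 1)/(background + 1) and p is a Poisson upper tail, so the deposited pairs were solved for a whole-number pileup and a background (largest error 0.000203 in −log10 p). On simulated data for the comparison of ABA with IAA, 100% of 3722 pileups and all 200 planted sites of each side were recovered. Where summits of 2 groups coincided (5100 pairs), the background relative to its lowest value, the floor, was equal within a fraction of 0.001. Only the 3093 pairs above the floor bear on this, since values at the floor are equal by definition. One control track, of unknown origin, thus lay under the calls, and the tags needed for a call could be computed at any summit.

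Sites were counted with Python 3.11.15, numpy 2.4.6, pandas 2.3.3 and scipy 1.17.1. Planned permutation tests were left out, because each group counts as 1 sample. The study describes biological replicates; shared tags are a finding on these lists, not on its reads. The sites, lists and rules were chosen with earlier results of these data known. Named sites were, for each side, the 5 with the highest mean percentile of −log10 q, and the 3 highest each with and without 24 h peaks. Among shared sites they were the 3 highest and the 3 lowest ABA over IAA pileup ratios. Genes, promoters, motifs and sequences were not analysed here, as no genome of this build was used.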

Additional observations from a re-analysis of the deposited data

How the results depend on the processing

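Alternatives for the strong sites in the dark and the shared-site scale of the pileup ratio were chosen after seeing the data; the others were planned. Main values are 733 ABA-side, 9381 IAA-side and 11265 shared sites, an IAA-side share of 92.8%, and 31.4%, 48.0% and 91.9% called at 24 h in these classes. Keeping peaks of −log10 q 5 or more, the IAA-side share was 94.4%, and 49.6% of IAA-side and 90.6% of shared sites were called at 24 h. Lists of equal length gave 2658 ABA-side and 2617 IAA-side sites (49.6% IAA-side), 87.6% of shared sites called at 24 h, and 36.2% of strong ABA-side and 65.4% of strong IAA-side sites called in the dark. Peaks that had to cover 50% or more of a site gave 45.9% of IAA-side and 87.2% of shared sites at 24 h, and 29.5% and 83.4% of strong ABA-side and IAA-side sites in the dark. Summits within 200 bp gave an IAA-side share of 90.3%, 90.2% of shared sites at 24 h, and 27.6% and 83.4% of the strong sites in the dark. A peak in either list gave an IAA-side share of 93.3%, with 39.5% of IAA-side and 89.4% of shared sites at 24 h. Peaks limited to the top 50% of their list left 161 ABA-side, 2185 IAA-side and 5126 shared sites, with 39.8%, 73.0% and 98.1% called at 24 h. The common height scaled to sites in all 10 lists gave 1234 ABA-side sites, an IAA-side share of 84.1%, and 35.8%, 52.3% and 92.4% at 24 h, with 86.3% of strong IAA-side sites in the dark; on the floor scale the IAA-side share was 93.3%. At 1.5 times the tags needed on the other side, the scale of sites in all 10 lists left 570 IAA-side sites (45.1% IAA-side; 82.6% at 24 h), and the floor scale 118 ABA-side and 6249 IAA-side sites (98.1% IAA-side; 39.0% and 55.6% at 24 h). At 2 times, the first scale left 292 and 36 sites (11.0% IAA-side; 34.9% and 94.4% at 24 h), and the floor scale 49 and 1939 (97.5% IAA-side; 49.0% and 72.7% at 24 h). Sites merged from 10 lists moved none of the counts of sites, the IAA-side share or the shares called at 24 h beyond their limits. The median log2 ABA over IAA pileup was -0.55 on the floor scale and turned to 0.10 on the scale of sites in all 10 lists. The latter scale was drawn largely from the shared sites themselves. ABA to IAA concordance was 0.921 as the share of the shorter list's peaks. The replicate block, same-numbered lists only, gave 0.443, as without it; the numbers did not pair the lists (r = 0.0103 over 11265 shared sites, which are not independent). No paired analysis was possible because n was 1 per group and nothing else was tested.

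With single lists removed one at a time there were 733 to 957 ABA-side, 9381 to 11504 IAA-side and 11265 to 11801 shared sites, an IAA-side share of 91.4% to 93.0%, and 29.6% to 38.1%, 42.2% to 57.4% and 90.9% to 94.1% called at 24 h. The strong sites called in the dark ranged from 11.8% to 20.3% (ABA-side) and 94.2% to 95.3% (IAA-side), the pileup ratio from -0.17 to -0.14, and concordance from 0.436 to 0.450. Leaving out a hormone list loosens the rule of the classes, and the 24 h lists take no part in it. The counts of sites could thus hardly fall, and their lowest values are the main ones. Lists of a group share tags, so these ranges say little about other plants. Of the 22 named sites, 17 to 22 kept their class in each of 15 settings. None changed side, but settings that only remove peaks could not turn a sided site to the other side. The shared sites among them have no side to change, so this count is no check for them. A named site could not lose its class where a single list was left out or a peak in either list sufficed, so those settings are no check. The settings at 1.5 and 2 times the tags needed were not run for single sites. The tags needed for a call limit what a missing peak means: an ABA call needed at least 16 tags and an IAA call 13. Other settings for promoter shares, motifs and gene lists were not run, since no genome of the build was used.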
